A study of Cucurbita moschata with 6 samples.

Results

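Abscisic acid is the plant hormone of water shortage and seed dormancy. This account covers the pumpkin genes whose deposited product name places them in its synthesis, breakdown, perception or downstream protection, measured in hypocotyls, that is, in seedling stems. Members were chosen by product name alone: PYR1 or PYL receptors, any name with "abscisic", 9-cis-epoxycarotenoid dioxygenases, SRK2 or SnRK2 kinases, ABSCISIC ACID-INSENSITIVE factors, dehydrins and late embryogenesis abundant (LEA) proteins. That gave 88 of the 32205 genes in the table, on 20 chromosomes. They were 7 synthesis genes, 12 breakdown genes, 22 receptors, 6 kinases, 14 transcription factors and 27 protective proteins.

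The groups were SR (3 libraries) and SCK (3 libraries), poly(A) RNA of hypocotyls from Cucurbita moschata seedlings with open cotyledons. All were grown under artificial light for 14 h at 28 °C and in the dark for 10 h at 18 °C. The labels spell out neither name, and their treatment note of 120 s of far-red light stands on all 6 samples. By the series text one group is treated and the other a control, and SCK is taken for the control, because CK often stands for one. The number of plants per library is not given, nor whether replicates are different plants, so the p-values speak of the spread among libraries, which may be technical. The lists used hold no marker specific to hypocotyl, and lists for tissues and states follow the first counts.

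Plants make abscisic acid from carotenoids. A 9-cis-epoxycarotenoid dioxygenase (NCED) cuts the carotenoid in the plastid, which is the committed step, and cytochrome P450 8'-hydroxylases of the CYP707A family start the breakdown of the hormone. Soluble receptors of the PYR1 and PYL family bind it and then block clade A protein phosphatases 2C. This frees SnRK2 kinases, which phosphorylate bZIP factors of the ABI5 and ABF type, and these switch on genes such as those of dehydrins and LEA proteins. In seedlings the hormone generally restrains growth and closes stomata.

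Deposited counts summed to 63870714 to 72356397 in SR libraries and 52300725 to 67350441 in SCK libraries. Levels below are deposited FPKM (fragments scaled to gene length and library size), and fold changes are log2 values of SR over SCK ± SE from edgeR's quasi-likelihood test, with Benjamini-Hochberg adjustment over 23509 tested genes and a threshold of 0.05. The fold changes use TMM scaling and FPKM do not, so log2 values lie somewhat below what the FPKM give: the median of all tested genes was 0.01 with TMM and 0.14 without. In 1596 tested genes SCK replicates 1 and 2 stood at least 2-fold apart, and in 93.6% of these the value of SCK replicate 3 fell between them; the same figure was 25.4% to 77.5% for the other libraries. Over the 55 tested members, whatever the size of the gap, SCK replicate 3 had the middle value of its group in 33, and each other library had it in 8 to 21. The labels do not say whether SCK replicate 3 was an independent sample. If it was not, SCK holds fewer than 3 independent libraries and the p-values of every fit that uses it are too small; this was not tested. Without SCK replicate 3 edgeR called 0 of all genes (5558 had an unadjusted p under 0.05), so every call below is absent from that fit, and each called member is given with its range over 17 alternative fits.

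Of the 88 members, 55 passed the filter on low values (at least 1 FPKM in at least 3 libraries) and were tested. In SR, 9 fell and 0 rose by edgeR. Over all tested genes 7.16% fell and 7.20% rose, 14.4% in either direction. An unadjusted p under 0.05 was reached by 22 of the 55 members, 17 with a lower and 5 with a higher level in SR, against 33.3% of all tested genes. The median log2 change of the tested members was -0.42, and 38 of 55 had a negative one, against 48.7% of all tested genes. The 9 that fell were 4 receptors, 2 kinases, 1 transcription factor, 1 dehydrin and 1 LEA protein, and 3 of them fell at least 2-fold. In whole-hypocotyl RNA, fewer cells of a type and less RNA per cell cannot be told apart.

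**Figure D1:**
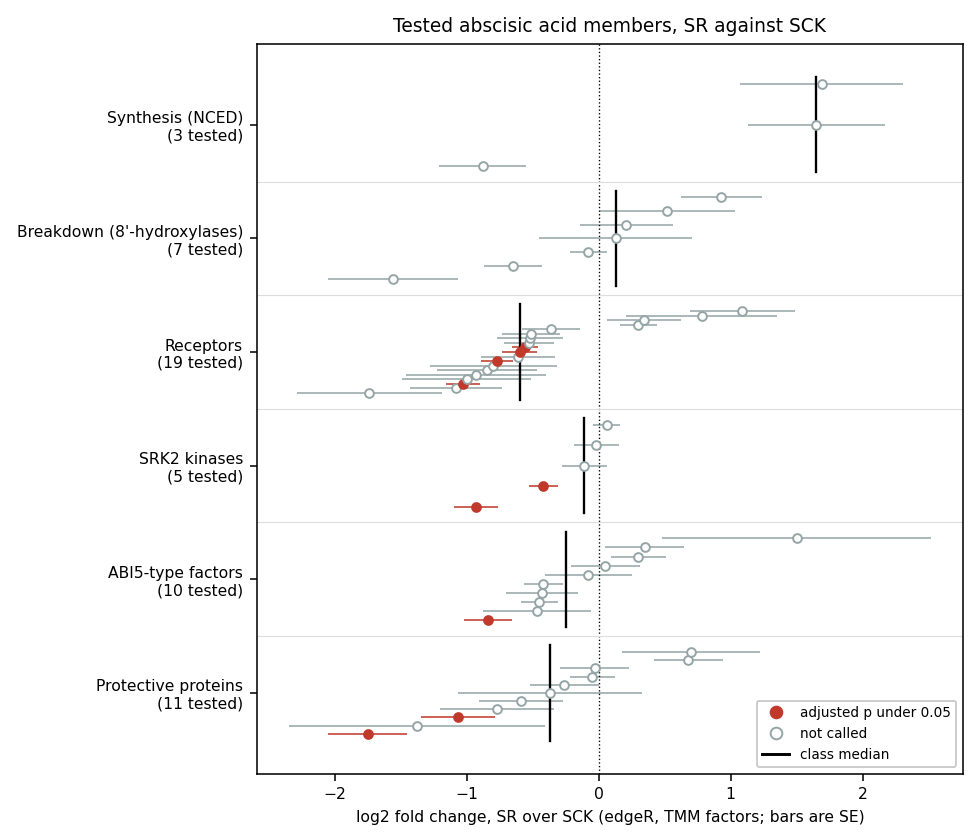
Log2 fold change of SR over SCK (x axis) with its SE for each of the 55 tested members, grouped by class down the y axis, with called members marked. Most points lie left of 0, the 9 called ones all do, and the receptors hold 4 of these.

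How often genes were called lower differed with their abundance. Among genes with a mean of 20 FPKM or more, 6 of 21 members fell, against 13.8% of all such genes. Between 5 and 20 FPKM it was 2 of 16 members, against 5.64%, and under 5 FPKM 1 of 18, against 2.39%. The members' median log2 changes in these bands, from high to low abundance, were -0.42, -0.52 and 0.17, beside -0.08, 0.01 and 0.16 for all tested genes. The members' median coefficient of variation was 30.0% in SR and 16.7% in SCK, against 15.9% in SR and 13.9% in SCK over all tested genes.

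Lists of product names for tissues and states were read beside these counts. Over all tested genes 7.16% fell and 7.20% rose. Leaf mesophyll markers (Rubisco small chain and chlorophyll a-b binding proteins) fell in 10 of 26 tested genes and rose in 0, with sums of 7938 to 9835 FPKM in SR and 9754 to 16183 FPKM in SCK. Seed reserve markers, relevant for LEA genes, summed to 31.0 to 39.0 FPKM in SR and 26.2 to 35.2 FPKM in SCK, with 6 of 23 at 0 and 1 of 7 tested called higher. Guard cell markers summed to 1.26 to 3.33 FPKM in SR and 1.76 to 3.20 FPKM in SCK, and none of the 6 passed the filter. Of the 37 tested phloem names 6 rose and 4 fell (3629 to 6012 FPKM in SR, 3909 to 4192 FPKM in SCK), and of the 24 tested handling and wounding names 0 rose and 5 fell (1349 to 1544 FPKM in SR, 998 to 1569 FPKM in SCK). Whether any list marks its tissue or state in hypocotyls, and its part in the members' values, was not tested.

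Of the 7 NCED genes, 3 were tested and none passed by edgeR. Over all tested genes 33.3% had an unadjusted p under 0.05 by edgeR, and DESeq2 called 13.0% higher and 12.7% lower. At that unadjusted p, 2 NCED genes were higher and 1 lower in SR, and DESeq2 called the same numbers. The most abundant was an NCED3-like gene (CmoCh03G013970, chromosome 3, 10201389 to 10203155, plus strand). NCED3 is the drought-induced dioxygenase of Arabidopsis. Its levels were 9.31, 4.12 and 5.02 FPKM in SR replicates 1, 2 and 3, against 9.71, 12.2 and 9.34 FPKM in SCK replicates 1, 2 and 3. The groups did not overlap, but SR replicate 1 lay just under the lowest SCK library. The log2 change was -0.88 ± 0.33 (edgeR adjusted p = 0.116), and over the alternatives the adjusted p ran from 0.0134, without SR replicate 1, to 0.289, without SR replicate 3.

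The other tested dioxygenases lay the other way. A further NCED3-like gene (CmoCh04G006910, chromosome 4, 3434234 to 3435985) was at 1.77, 4.57 and 1.33 FPKM in SR, against 0.548, 1.08 and 0.572 FPKM in SCK. Every SR library was above every SCK library, with SR replicate 2 far above the rest. Its log2 change was 1.65 ± 0.52 (edgeR adjusted p = 0.0743, alternatives 0.0123 by DESeq2 to 0.251 by limma without SCK replicate 3). NCED6 (CmoCh17G001180), which in Arabidopsis acts in seeds, was at 0.820, 4.62 and 2.45 FPKM in SR, against 0.429, 0.633 and 1.12 FPKM in SCK, with a log2 change of 1.69 ± 0.62 and an edgeR adjusted p of 0.111. SR replicate 1 lay among the SCK values there. Of the SCK libraries, only replicate 2 for CmoCh04G006910 and replicate 3 for NCED6 reached the filter of 1 FPKM. The filter itself thus favoured a higher SR level in both genes.

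The summed levels of the dioxygenases overlapped between the groups. Summed over the 7 genes, the levels were 12.5, 13.9 and 9.07 FPKM in SR and 11.2, 14.1 and 11.3 FPKM in SCK. The most abundant NCED3-like gene held 74.8%, 29.7% and 55.4% of that sum in SR, against 87.0%, 86.5% and 82.4% in SCK. Each SR share was below each SCK share, with SR replicate 2 the lowest and SR replicate 1 nearest to SCK. The shares were not tested, and they restate the levels of the tested genes above, of which none passed by edgeR. The 4 untested dioxygenases included 2 with no counts in any library, and the other 2 stayed at or under 0.553 FPKM.

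Of the 12 breakdown genes, the 8'-hydroxylases, 7 were tested and none passed by edgeR. Over all tested genes 33.3% had an unadjusted p under 0.05 by edgeR, and DESeq2 called 13.0% higher and 12.7% lower. At that unadjusted p, 1 hydroxylase was higher and 2 lower in SR, and DESeq2 called the same numbers. The most abundant, hydroxylase 1 (CmoCh12G004020, chromosome 12, 2503860 to 2507931), had 27.5, 25.9 and 34.6 FPKM in SR, against 24.8, 31.3 and 28.6 FPKM in SCK. These ranges overlapped and the log2 change was -0.08 ± 0.14 (edgeR adjusted p = 0.747, alternatives 0.377 to 0.960). Hydroxylase 1 made up 57.7% to 72.4% of the class sum in SR and 60.4% to 65.8% in SCK.

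A hydroxylase 2-like gene (CmoCh01G006440, chromosome 1, 3292627 to 3297558) had the smallest adjusted p of the class. It stood at 1.25, 4.27 and 1.17 FPKM in SR, against 6.0, 5.46 and 6.25 FPKM in SCK. All SR values were below all SCK values, and SR replicate 2 was nearest to them. The log2 change was -1.56 ± 0.49 (edgeR adjusted p = 0.0747), and over the alternatives the adjusted p was 0.00845 by DESeq2 and up to 0.192 without SCK replicate 3; without SR replicate 2 edgeR called it (0.0157).

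A hydroxylase 4-like gene (CmoCh19G006230) lay the other way, at 1.76, 1.47 and 1.73 FPKM in SR, against 0.505, 0.819 and 1.05 FPKM in SCK. Its groups did not overlap either, and its log2 change was 0.93 ± 0.31 (edgeR adjusted p = 0.0828). This gene was chosen after its values were seen. Of its SCK libraries only replicate 3 reached the filter of 1 FPKM, so the filter itself favoured a higher SR level there. The whole class summed to 46.3 ± 9.06 FPKM in SR and 44.8 ± 3.33 FPKM in SCK (SD, n = 3 each), and 4 of the 7 tested members had a positive and 3 a negative log2 change.

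Receptors, the class with the most tested genes, also held the most falls, with 4 lower and 0 higher of 19 tested (22 in all). Over all tested genes 7.16% fell and 7.20% rose. At 20 FPKM or more, where the called PYL9-like, PYL4-like and PYL8-like genes lie, 13.8% of all tested genes fell. Summed levels of the 22 genes were 415, 396 and 443 FPKM in SR, against 544, 606 and 579 FPKM in SCK. No SR library reached any SCK library, and the ratio of the means was 0.725. The median log2 change was -0.60 and 15 of 19 tested receptors had a negative one. SR lay wholly below SCK in 5 of them and wholly above in 2, beside 12.7% below and 27.9% above over all tested genes.

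**Figure D2:**
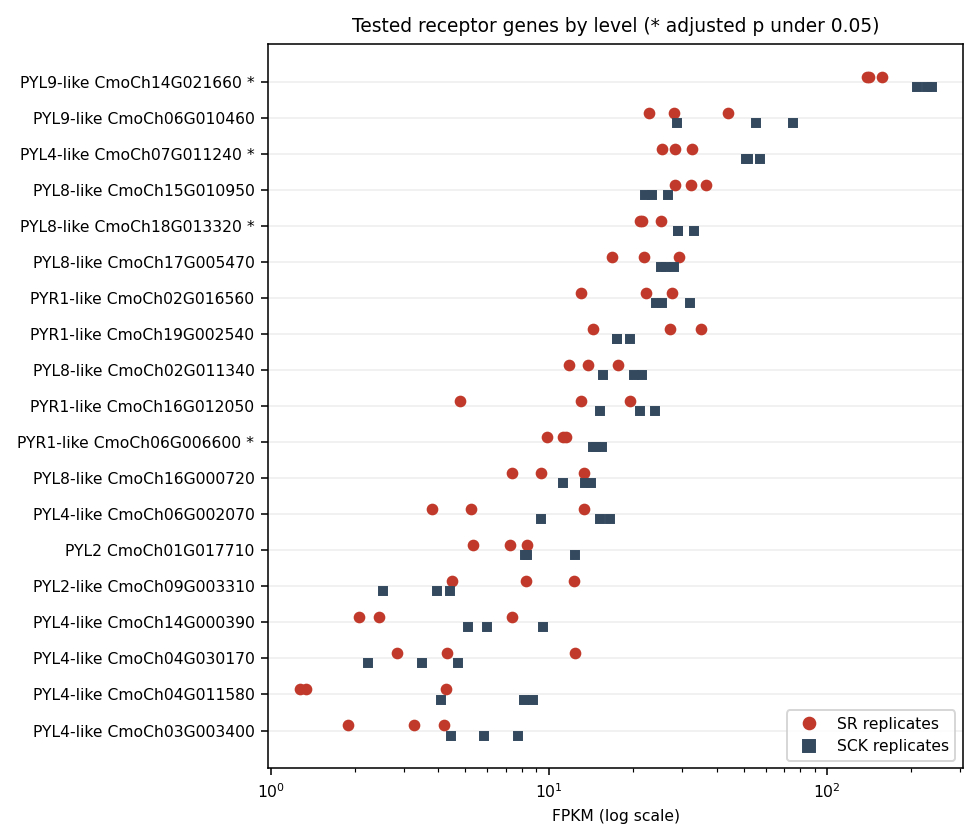
FPKM (x axis, log scale) of every tested receptor gene in each library. Genes are ordered by mean level down the y axis, and SR points are drawn just above SCK points. The PYL9-like gene CmoCh14G021660 has by far the highest level. Its 3 SR values (139 to 157 FPKM) are lower than its 3 SCK values (210 to 237 FPKM).

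Receptors fall into branches. In Arabidopsis, PYR1 and PYL2 bind the hormone as dimers, while the PYL4 and PYL8 branches act as monomers. The PYL8 and PYL9 branch was the most abundant, with 298, 264 and 277 FPKM summed over 7 genes in SR, against 373, 406 and 396 FPKM in SCK. A PYL9-like gene (CmoCh14G021660, chromosome 14, 15546239 to 15547676, minus strand) was the most abundant receptor and held 34.0% to 35.5% of the sum over all receptors in SR and 34.6% to 43.6% in SCK.

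That PYL9-like gene was at 141, 139 and 157 FPKM in SR, against 237, 210 and 229 FPKM in SCK. Every SR library was below every SCK library. It fell by 0.77 ± 0.12 on the log2 scale (edgeR adjusted p = 0.0158, means 146 ± 9.93 FPKM in SR and 225 ± 14.2 FPKM in SCK). Over 17 alternatives it was called in 13, with adjusted p from 4.42e-07 by DESeq2 to 0.107 by limma without SCK replicate 3. Its copy (CmoCh06G010460) was at 44.1, 22.9 and 28.1 FPKM in SR, against 28.9, 75.2 and 55.2 FPKM in SCK, which overlap (adjusted p = 0.164).

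Of 5 PYL8-like genes, 1 fell, where 7.16% of all tested genes fell. The share was 13.8% at 20 FPKM or more, where the gene that fell lies. CmoCh18G013320 (chromosome 18, 12646969 to 12649973, minus strand) was at 21.5, 25.3 and 21.2 FPKM in SR, against 29.0, 33.1 and 29.1 FPKM in SCK. The groups did not overlap, and it fell by 0.56 ± 0.10 on the log2 scale (edgeR adjusted p = 0.0202, alternatives 0.000166 to 0.160, called in 10 of 17). An antisense gene with no product name overlaps it over 314 bp at 0.899 FPKM. The other 4 had log2 changes of -0.53 to 0.30, and one of these, CmoCh15G010950, had SR wholly above SCK, at 36.6, 32.5 and 28.3 FPKM in SR, against 22.2, 26.8 and 23.4 FPKM in SCK (log2 change 0.30 ± 0.14, adjusted p = 0.201).

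PYL4-like genes held the smallest adjusted p of all members. CmoCh07G011240 (chromosome 7, 5920704 to 5921330, minus strand) was at 25.5, 28.4 and 32.7 FPKM in SR, against 57.4, 51.1 and 52 FPKM in SCK. Every SR value was well below every SCK value. It fell by 1.03 ± 0.13 on the log2 scale (edgeR adjusted p = 0.0119), and 14 of 17 alternatives called it, with adjusted p from 4.01e-09 by DESeq2 to 0.0830 by limma without SCK replicate 3.

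Of 7 PYL4-like genes 6 were tested. A negative log2 change was found in 5 of them, against 48.7% of all tested genes, and a positive one in 1. The changes ran from -1.74 ± 0.55 to 0.78 ± 0.57, and besides the gene above none passed by edgeR. CmoCh04G011580, at the low end, was at 1.27, 1.34 and 4.26 FPKM in SR, against 4.08, 8.74 and 8.15 FPKM in SCK (adjusted p = 0.0766). SR replicate 3 was the highest SR library in all 6 of these genes, against 29.4% of all tested genes, and SCK replicate 2 was the highest SCK library in 5, against 43.9%. With the PYL12-like gene, the branch of 8 genes summed to 40.6, 42.3 and 74.6 FPKM in SR, against 84.0, 98.8 and 90.1 FPKM in SCK. Every SR sum was below every SCK sum.

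In the PYR1 and PYL2 branch, 1 of 6 tested genes fell, where 7.16% of all tested genes fell. The PYR1-like gene CmoCh06G006600 (chromosome 6, 3326763 to 3328114, minus strand) was at 9.85, 11.2 and 11.5 FPKM in SR, against 15.5, 14.8 and 14.4 FPKM in SCK. It fell by 0.60 ± 0.13 on the log2 scale with no overlap between groups (edgeR adjusted p = 0.0277). This call held in 9 of 17 alternatives and missed without TMM (0.0527), among others, with adjusted p from 0.000220 to 0.145. A PYL2-like gene (CmoCh09G003310) lay higher in SR, at 12.3, 4.49 and 8.27 FPKM, against 2.53, 4.39 and 3.96 FPKM in SCK, with a log2 change of 1.09 ± 0.40 and an adjusted p of 0.109. Its lowest SR library hardly exceeded the highest SCK library. The branch summed to 76.9, 88.7 and 91.4 FPKM in SR and 87.5, 101 and 92.9 FPKM in SCK, which overlap.

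SnRK2 kinases were given as SRK2A, SRK2E, SRK2H and SRK2I in the table. In Arabidopsis, SRK2E (OST1) and SRK2I are activated strongly by the hormone, whereas SRK2A and SRK2H respond to osmotic stress and not to it. Of 6 genes 5 were tested, and 2 fell while 0 rose, where 7.16% of all tested genes fell, and 13.8% of those at 20 FPKM or more, as all 5 tested kinases were. The class summed to 353, 337 and 310 FPKM in SR, against 411, 383 and 403 FPKM in SCK, with every SR library below every SCK library. Without its most abundant member it summed to 257, 246 and 235 FPKM in SR and 244, 250 and 250 FPKM in SCK, which overlap.

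That member was SRK2I-like CmoCh02G005620 (chromosome 2, 3219604 to 3225216, plus strand), at 96.7, 90.5 and 75.2 FPKM in SR, against 167, 133 and 153 FPKM in SCK. The groups were apart, and it fell by 0.93 ± 0.17 on the log2 scale (edgeR adjusted p = 0.0190, alternatives 1.05e-05 to 0.0974, called in 13 of 17). Its namesake CmoCh20G011830 was at 55.3, 63.7 and 49.9 FPKM in SR, against 65.5, 49.3 and 50.7 FPKM in SCK, with a log2 change of -0.11 and an adjusted p of 0.672. The difference between these copies was not tested.

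SRK2A-like CmoCh03G000050 (chromosome 3, 94533 to 99573, minus strand) was at 61.6, 63.3 and 68.3 FPKM in SR, against 81.9, 75.3 and 77.8 FPKM in SCK. It fell by 0.42 ± 0.11 on the log2 scale (edgeR adjusted p = 0.0467), a call made in 5 of 17 alternatives and in 0 of the 6 fits that each left out 1 library (alternatives 0.00295 to 0.260). SRK2E (CmoCh11G013420), the kinase of stomatal closure, was at 31.9, 33.1 and 28.4 FPKM in SR, against 27.5, 27.5 and 26.2 FPKM in SCK. Its FPKM groups did not overlap, but the scaled log2 change was only 0.06 ± 0.10 (adjusted p = 0.703). SRK2H-like CmoCh07G014060 was at 107, 85.7 and 88.1 FPKM in SR, against 68.3, 98.3 and 94.5 FPKM in SCK (adjusted p = 0.954).

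**Figure D3:**
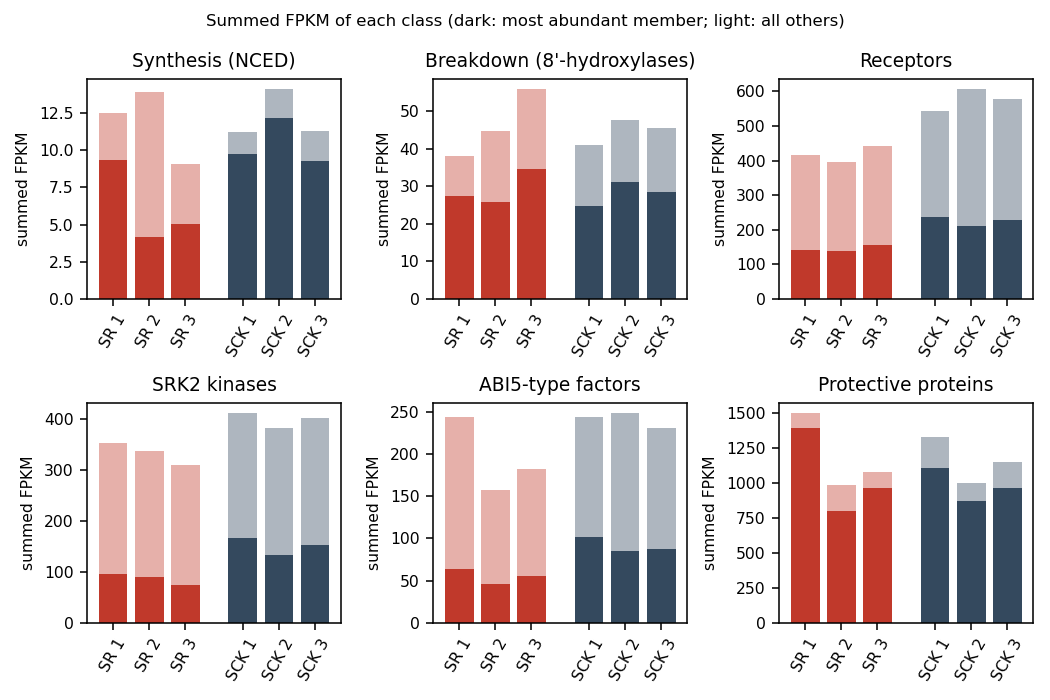
Summed FPKM of each class in each library, SR left of SCK. Receptors and kinases have all 3 SR sums below all 3 SCK sums, and in the other classes the groups overlap.

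Among 14 ABI5-type bZIP factors, 10 were tested and 1 fell, where 7.16% of all tested genes fell. The share was 13.8% at 20 FPKM or more, where the factor that fell lies. ABI5-like protein 2 (CmoCh15G005520, chromosome 15, 2641308 to 2644380, plus strand), the most abundant, was at 64.7, 46.0 and 56.3 FPKM in SR, against 101, 84.4 and 87.0 FPKM in SCK. All SR values were lower, and it fell by 0.84 ± 0.18 on the log2 scale (edgeR adjusted p = 0.0286, alternatives 0.000514 to 0.108). This call was made in 10 of 17 alternatives, but among the fits that left out 1 library only in that without SR replicate 1. Its tested copy CmoCh10G010430 was at 8.15, 7.56 and 8.59 FPKM in SR, against 9.24, 10.7 and 9.71 FPKM in SCK, also without overlap (log2 change -0.42 ± 0.15, adjusted p = 0.0972).

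ABI5-like protein 3 (CmoCh11G015340) was likewise wholly lower in SR, at 15, 12.3 and 14.4 FPKM, against 18.3, 17.7 and 16 FPKM in SCK, and did not pass (log2 change -0.45 ± 0.14, edgeR adjusted p = 0.0714). In the other 7 tested factors the groups overlapped. An ABI5-like protein 6 gene (CmoCh19G006180) was at 79.2, 38.6 and 51.6 FPKM in SR, against 68.4, 75.4 and 66.7 FPKM in SCK, where SR replicate 1 was the highest library of all (adjusted p = 0.306). Its copy CmoCh11G013700 had 39.7, 20.9 and 27.4 FPKM in SR, against 22.4, 30.9 and 24.9 FPKM in SCK (adjusted p = 0.916). SR replicate 1 was the highest SR library in 7 of the 10 tested factors, against 25.9% of all tested genes. The 3 genes named plainly as ABI5-like, the factor of seed germination, stayed at or under 0.371 FPKM in every library and were not tested.

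Protective proteins were the largest class, with 27 genes of which 11 were tested. Of these, 2 fell and 0 rose, where 7.16% of all tested genes fell and 7.20% rose. Dehydrins are hydrophilic proteins thought to shield membranes and enzymes from drying. One, dehydrin ERD14-like CmoCh05G010130 (chromosome 5, 8158502 to 8159996), exceeded all other members, at 1397, 797 and 969 FPKM in SR, against 1107, 876 and 968 FPKM in SCK. These values overlapped widely, with SR replicates 1 and 2 as the extremes, and the log2 change was -0.03 ± 0.26 (edgeR adjusted p = 0.950, alternatives 0.316 to 0.962). It held 80.8% to 93.1% of the class sum in SR and 83.1% to 87.2% in SCK.

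The other dehydrin, DHN1-like CmoCh16G006890 (chromosome 16, 3410635 to 3411036, plus strand), had a far lower level and the largest fold of the called members. It was at 3.73, 2.74 and 2.30 FPKM in SR, against 7.17, 9.22 and 10.7 FPKM in SCK. The groups did not overlap, and it fell by 1.75 ± 0.30 on the log2 scale (edgeR adjusted p = 0.0183). The alternatives gave adjusted p from 4.24e-06 to 0.0892 and called it in 13 of 17.

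LEA proteins accumulate in drying seeds and are named for it. Of 24 LEA genes 8 were tested and 1 fell, where 7.16% of all tested genes fell. This was D-34-like CmoCh08G011150 (chromosome 8, 7117364 to 7121046, minus strand). It was at 3.16, 3.37 and 2.72 FPKM in SR, against 7.66, 4.55 and 5.44 FPKM in SCK, with no overlap and with SCK replicate 1 the highest. It fell by 1.07 ± 0.28 on the log2 scale (edgeR adjusted p = 0.0478, alternatives 0.00408 to 0.150, called in 5 of 17 and in 0 of 6 that left out 1 library). An antisense copy of the same name overlaps it over 2539 bp and had no counts. Of the 7 D-34-like genes 3 were tested. Among them CmoCh06G014110 was at 1.36, 1.27 and 1.06 FPKM in SR, against 0.526, 0.694 and 0.88 FPKM in SCK (log2 change 0.68 ± 0.26, edgeR adjusted p = 0.123). That gene passed the filter of 1 FPKM only through its SR libraries, so the filter itself favoured a higher SR level there.

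Replicates differed widely in other protective genes, picked here with their values in view. The abscisic stress-ripening protein 2-like gene (CmoCh09G011740) was at 2.54, 33.9 and 5.28 FPKM in SR, against 55.4, 11.3 and 27.7 FPKM in SCK. SR replicate 2 lay among the SCK values, the coefficient of variation was 125% in SR and 70.8% in SCK, and the log2 change was -1.38 ± 0.97 (adjusted p = 0.366). The LEA gene At5g17165-like CmoCh16G002530 had the same order, at 27.9, 74.2 and 28.4 FPKM in SR, against 89.2, 43.4 and 66.0 FPKM in SCK (adjusted p = 0.257). SR replicate 2 and SCK replicate 1 were the highest of their groups in both. This held in 4 of the 11 tested protective genes and in 17.3% of all tested genes.

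**Figure D4:**
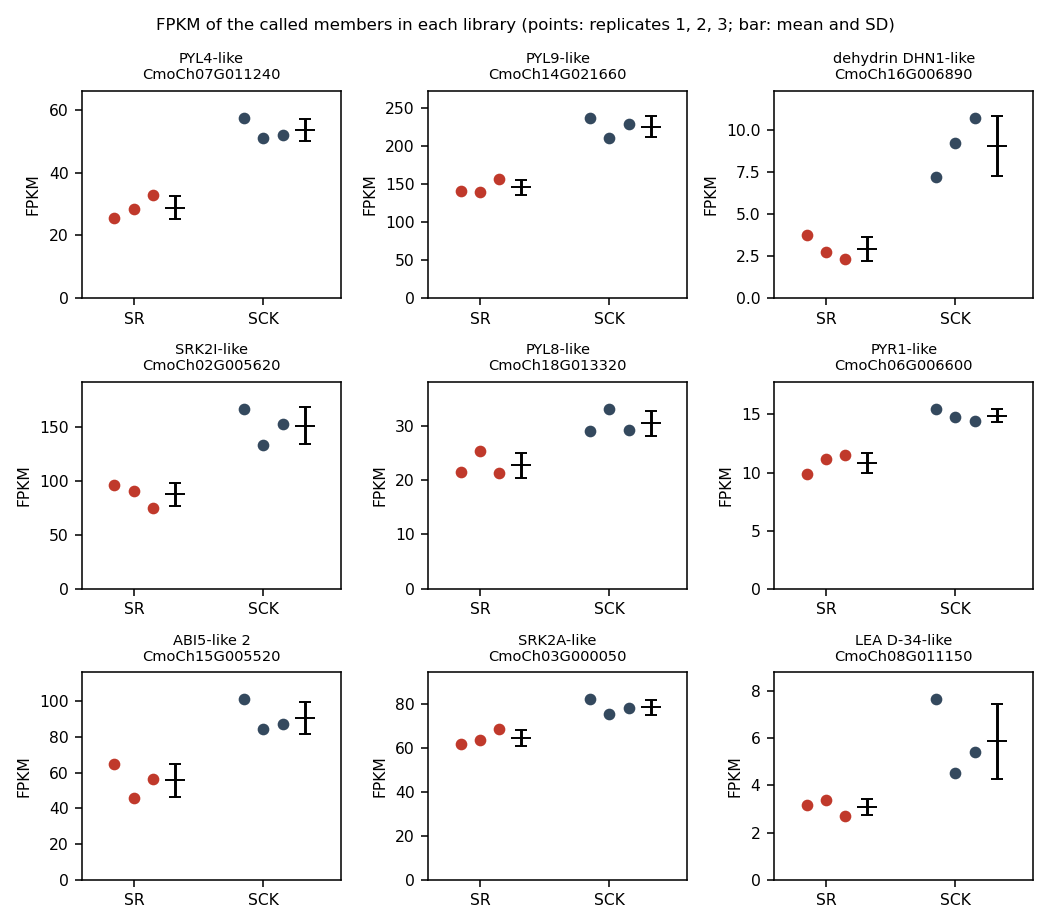
FPKM of the 9 called members in each library, SR points left of SCK points, with group means. In all 9 every SR value lies below every SCK value, from 2.30 to 3.73 against 7.17 to 10.7 FPKM for the DHN1-like dehydrin up to 139 to 157 against 210 to 237 FPKM for the PYL9-like receptor.

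In all, 33 members were not tested, and none exceeded 1.38 FPKM in any library. They were 16 protective genes, 5 hydroxylases, 4 dioxygenases, 4 factors, 3 receptors and 1 kinase. For 9 of them, 7 protective and 2 dioxygenase genes, no count was found in any library. A floor of 12 deposited counts (3 read pairs) over 378300811 counts allows up to 0.0317 CPM for each. One untested LEA gene of group 3 (CmoCh18G003590), chosen after its values were seen, had 0.296, 0.103 and 0.544 FPKM in SR and was listed at 0 in all 3 SCK libraries. It had 87 counts over SR and 0 over SCK. Set against the floor of 12 counts over the SCK group, the ratio was 5.75 on totals scaled with TMM. That ratio takes the SR counts of 26, 11 and 50 as exact, so it is not a lower bound on the change. With no filter edgeR called this gene (adjusted p = 0.0486).

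Copies and overlaps limit some values. Of the 88 members, 17 overlap another gene, in each case on the opposite strand, and 6 such pairs are 2 members of the same name. The kit marks strand, but whether the counting used it is not given, so how the reads of such pairs were assigned is not known. The NCED3-like CmoCh03G013980 and the D-34-like CmoCh08G011160 lie wholly within their partners and had no counts. Their partners had counts in every library. Copies are known here by a shared product name alone, such as the 7 PYL4-like or 7 D-34-like genes. How alike their sequences are, and how reads that fit several genes were counted, is not known, so values of such genes are uncertain.

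Other genes of the pathway, outside the members, came from a list of product names of 52 genes. Of 39 tested, 3 rose and 4 fell, with a median log2 change of -0.16, where 7.20% of all tested genes rose and 7.16% fell. Those shares would give about as many calls, so the genes below describe single genes and not the list. In synthesis, xanthoxin dehydrogenase (CmoCh15G008530), which follows the dioxygenase, fell by 1.24 ± 0.22 on the log2 scale, at 56.8, 44.7 and 45.5 FPKM in SR, against 132, 83.4 and 99.8 FPKM in SCK (edgeR adjusted p = 0.0191). None of 6 aldehyde oxidases and none of 3 molybdenum cofactor sulfurases passed, and zeaxanthin epoxidase (CmoCh02G005580), at the start of the route, was at 26.9, 17.1 and 16.1 FPKM in SR, against 31.0, 30.0 and 28.9 FPKM in SCK (adjusted p = 0.0766).

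Clade A phosphatases, the targets of the receptors, were called in both directions. Phosphatase 16-like (CmoCh01G000600) rose by 0.63 ± 0.16, at 15.5, 13.0 and 11.1 FPKM in SR, against 8.11, 7.64 and 7.56 FPKM in SCK (edgeR adjusted p = 0.0417). Phosphatase 24 (CmoCh10G006960), the most abundant, fell by 0.73 ± 0.17, at 30.3, 28.7 and 22.8 FPKM in SR, against 33.0, 47.4 and 43.3 FPKM in SCK (edgeR adjusted p = 0.0334). Both pairs of groups were free of overlap. SAPK genes, which are SnRK2 kinases under their rice name, held the smallest adjusted p of the list: SAPK2-like CmoCh03G008650 fell by 2.03 ± 0.20, at 5.15, 4.77 and 3.27 FPKM in SR, against 15.3, 17.6 and 16.3 FPKM in SCK (edgeR adjusted p = 0.00942). The most abundant, SAPK3-like CmoCh06G008450, was at 125, 140 and 107 FPKM in SR, against 184, 126 and 147 FPKM in SCK (adjusted p = 0.156).

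Among transporters and responses, 2 further genes rose and 1 fell. ABC transporter G family member 25-like (CmoCh09G011180), an exporter of the hormone in Arabidopsis, rose by 1.38 ± 0.21, at 19.2, 19.5 and 13.0 FPKM in SR, against 4.66, 7.22 and 6.33 FPKM in SCK (edgeR adjusted p = 0.0144). The S-type anion channel SLAH2-like (CmoCh02G011100) fell by 0.83 ± 0.14, at 7.40, 6.08 and 7.42 FPKM in SR, against 10.5, 11.5 and 11.9 FPKM in SCK (adjusted p = 0.0178). Of 16 tested dehydration response genes 1 rose, ERD15-like CmoCh07G013890, by 0.76 ± 0.14, at 162, 132 and 165 FPKM in SR, against 81.6, 87.5 and 78.3 FPKM in SCK (edgeR adjusted p = 0.0190). In Arabidopsis ERD15 dampens the response to the hormone. No gene carried an ABF name. Each of these 7 calls was made in 7 to 14 of the 17 alternatives, and edgeR made 0 of them without SCK replicate 3.

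The count of members that fell, 9 of 55 where 7.16% of all genes fell, moved with the fit. DESeq2 called 16 members lower (12.7% of all genes) and 4 higher (13.0%). Without SCK replicate 3 DESeq2 called 9 lower (8.17%) and 2 higher (7.93%), and limma 0 lower (0.0128%). With all libraries limma called 6 lower on log2(FPKM + 1) (4.63%) and 7 on log2(FPKM + 0.1) (4.49%). EdgeR called 9 lower with RLE factors (7.27%), 9 with counts divided by 4 (7.33%), 8 with filterByExpr (6.05%), 7 with no filter (5.19%) and 6 without TMM (4.91%).

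Leaving out 1 library moved the edgeR count too. With SCK replicate 1 left out it called 5 members lower (3.57% of all genes), with SCK replicate 2 left out 4 (3.98%), with SCK replicate 3 left out 0 (0%) and with SR replicate 1 left out 10 (6.84%). With SR replicate 2 left out it called 6 (4.53%), and with SR replicate 3 left out 2 (1.23%), the PYL4-like genes CmoCh07G011240 and CmoCh04G011580. Members called higher were 2 without SR replicate 1 (7.78%), 1 without SR replicate 2 (3.90%) and 1 with no filter (5.05%).

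**Figure D5:**
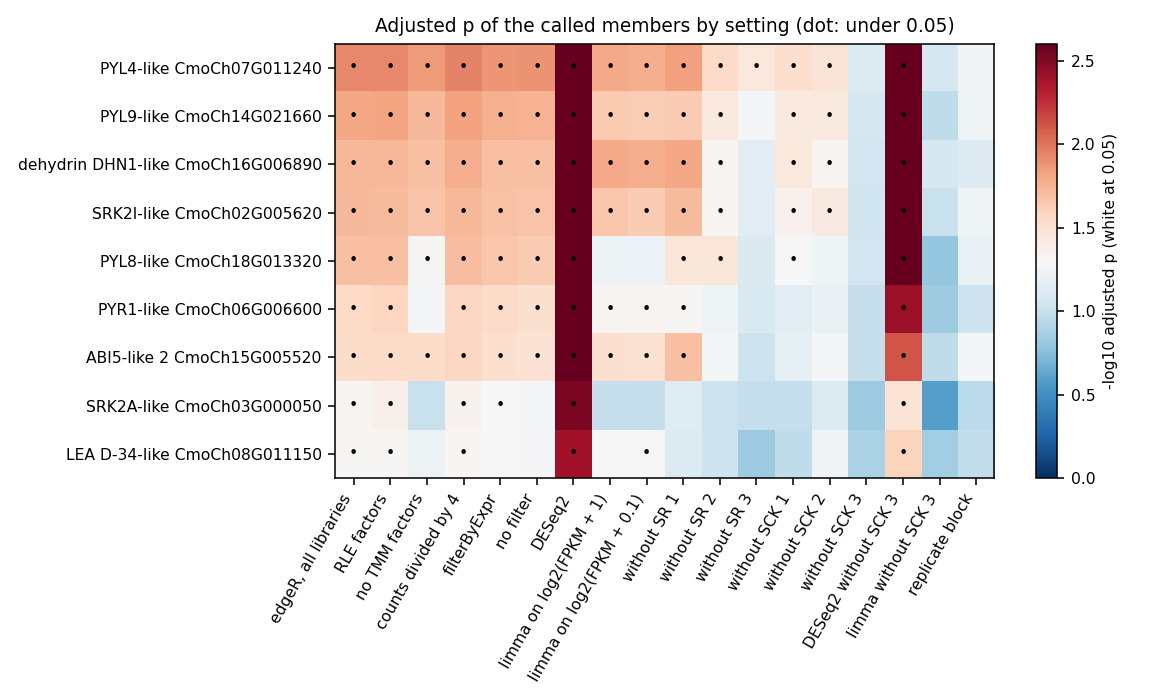
Adjusted p on a -log10 scale (colour, white at 0.05, red below it) for the 9 called members (rows) under the reported fit and 17 alternatives (columns); dots mark an adjusted p under 0.05. Without SCK replicate 3 edgeR and limma call none of the 9, while DESeq2 calls all 9.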

How the data were processed

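Whole-number counts and FPKM values per gene stand side by side in 1 table that the authors deposited, per the file headers. HISAT and StringTie are named, per the submitters' processing notes, without versions. Not given in the sources used here are genome build, annotation, strand use and handling of shared reads; gene identifiers, positions and product names are those of the deposited table. A further 6 value columns match no sample and were not used. The deposited FPKM were 0.0001 in all 28770 places with a count of 0 and were read as 0. The count 4 occurred 1350 times, against 567 for 3 and 516 for 5, so 1 read pair may be worth about 4 deposited counts, and a floor of 3 read pairs was taken as 12 counts. Floors cover counting error only.

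Genes with at least 1 FPKM in at least 3 libraries (23509) were tested with edgeR 4.0.16 (quasi-likelihood, TMM, group only; R 4.3.3), tested first on simulated data. SE is the absolute log2 change over the root of F. DESeq2 1.42.0, limma 3.58.1 on log2(FPKM + 1) or log2(FPKM + 0.1), other scaling and filters, counts divided by 4, the replicate number as a block and each library left out were alternatives; DESeq2 and limma without SCK replicate 3 were added after seeing the data. The members and lists were chosen with earlier results of these data known. Named are every called member, the most abundant member and the one with the smallest adjusted p of each class, their copies, and of the other pathway genes up to 2 called per kind with the most abundant phosphatase and kinase; NCED6, the PYL2-like receptor, SRK2E, SRK2H-like, ABI5-like proteins 3 and 6 and zeaxanthin epoxidase were picked with their values in view, as were those so marked in the text. No table of sequences matched a member (0 of 88), so none is shown.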

Additional observations from a re-analysis of the deposited data

How the results depend on the processing

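All 9 called members kept a negative log2 change in all 17 alternatives. The number called did not hold. Over all genes edgeR called 3375, DESeq2 6026, limma without SCK replicate 3 8, edgeR with the replicate block 0 (6564 at an unadjusted p under 0.05), and edgeR with 1 library left out 0 to 3437. Dropping SCK replicate 1 left 1576, SCK replicate 2 1667, SCK replicate 3 0, SR replicate 2 1981 and SR replicate 3 542. Members called lower, 9 with all libraries, were 16 by DESeq2 (12.7% of all genes), 9 by DESeq2 without SCK replicate 3 (8.17%), and 0 to 10 with 1 library left out. Members called higher were 4 by DESeq2 (13.0% of all genes), 2 by DESeq2 without SCK replicate 3, 1 with no filter and 0 to 2 with 1 library left out.

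By class, DESeq2 called 2 synthesis genes higher and 1 lower, and 1 hydroxylase higher and 2 lower. It called 1 receptor higher and 6 lower, and 2 kinases, 3 factors and 2 protective genes lower. Over all genes DESeq2 called 13.0% higher and 12.7% lower. Without SCK replicate 3 DESeq2 called 1 synthesis gene and 1 hydroxylase higher, where 7.93% of all genes were. It then called 4 receptors, 2 kinases, 1 factor and 2 protective genes lower, where 8.17% of all genes were. Limma without SCK replicate 3 and the replicate block each called 0 receptors, 0 kinases, 0 factors and 0 protective genes lower, and 0 other pathway genes (7 with all libraries, 11 by DESeq2). Kinases called lower were 1, and not 2, by limma with either pseudocount, without TMM and with no filter. Protective genes called lower were 1 with filterByExpr, by limma on log2(FPKM + 1), without TMM and with no filter, which also called 1 higher. With 1 library left out, 0 to 1 synthesis genes, hydroxylases or receptors were called higher and 0 to 1 synthesis genes or hydroxylases lower. In those fits 0 to 5 receptors, 0 to 1 kinases, 0 to 2 factors, 0 to 1 protective genes were called lower and 0 to 7 other pathway genes were called. The cause of these differences was not tested. Without TMM the members' median log2 change was -0.29 beside 0.14 for all genes, with 6 members lower (4.91% of all genes) and 0 higher (11.1%).

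The deviations of same-numbered libraries from their group means correlated at -0.146, -0.249 and 0.0879. Such deviations cancel out within each group, so the correlations are tied to each other. They cannot show whether replicate numbers pair the libraries. Across numbers the highest correlation was 0.2625, for SR replicate 2 with SCK replicate 1, and its cause was not tested. The 33 untested members were left out by the filter of 1 FPKM, and 3 libraries a group limit all calls.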
